A study of Mus musculus with 12 samples.

Results

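The genes described here are 28 genes of cholesterol synthesis, of the isoprenoid branch that leaves the same pathway and of sterol transfer and storage. They were taken by gene symbol from a table of 25284 genes counted in mouse aorta, and all 28 were among the 15857 genes that had enough counts to be tested. RNA was sequenced from the thoracic aorta of male ApoE-/- mice on a C57BL/6 background, all fed a high fat diet and all carrying an osmotic minipump under the skin. From 10 weeks of age and for 8 weeks, pumps of 6 mice delivered AZ6983, an agonist of the alpha 7 nicotinic acetylcholine receptor, at 50 µmol per kg per day, and pumps of 6 control mice delivered the vehicle, cyclodextrin in saline. Control mice are called C1 to C6 and AZ6983 mice A1 to A6. Both groups lack apolipoprotein E, the ligand by which the liver takes up lipoprotein remnants, so no mouse here has a normal lipoprotein metabolism. The comparison asks whether these genes differed between AZ6983 and control mice, and how they varied together from mouse to mouse.

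Cells build cholesterol from acetyl-CoA through mevalonate, isoprenoid diphosphates, squalene and lanosterol. Farnesyl diphosphate is the branch point, since it also gives the side chain of coenzyme Q, the dolichol that carries sugars for glycosylation and the lipid anchors of prenylated proteins. When sterols in the endoplasmic reticulum run low, the transcription factor encoded by Srebf2 is released and raises the genes of the pathway, and Insig proteins hold it back when sterols are plentiful. In an atherosclerotic artery, cells also receive cholesterol from lipoproteins and store it as esters, made by the product of Soat1.

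Promoters of 5 members of the most closely correlated pairs described below, chosen after these values were seen, and of Hmgcs1, an early enzyme of the pathway, are shown as the regulatory sequence of the pathway. Each runs from 250 bases before to 50 bases after the start of the gene, 5′ to 3′ on the strand of the gene, from RefSeq on GRCm38.p6. Capitals mark matches on either strand of CACNCCA, the core of a sterol regulatory element, of CCAAT, the box bound by NF-Y, and of GGGCGG, a GC box bound by Sp1-type factors. The promoter of Hmgcs1 lies at chr13:119690101-119690400 (plus strand), that of Msmo1 at chr8:64733529-64733828 (minus strand) and that of Hsd17b7 at chr1:169969156-169969455 (minus strand). The promoter of Idi1 lies at chr13:8885356-8885655 (plus strand), that of Lss at chr10:76531355-76531654 (plus strand) and that of Pdss1 at chr2:22895272-22895571 (plus strand).
Hmgcs1: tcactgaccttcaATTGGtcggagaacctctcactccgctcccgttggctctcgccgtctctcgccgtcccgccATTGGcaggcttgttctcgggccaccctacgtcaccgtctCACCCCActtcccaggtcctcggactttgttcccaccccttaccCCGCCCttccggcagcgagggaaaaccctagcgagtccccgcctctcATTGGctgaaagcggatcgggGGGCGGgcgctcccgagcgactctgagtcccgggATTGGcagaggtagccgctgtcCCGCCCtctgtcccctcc
Msmo1: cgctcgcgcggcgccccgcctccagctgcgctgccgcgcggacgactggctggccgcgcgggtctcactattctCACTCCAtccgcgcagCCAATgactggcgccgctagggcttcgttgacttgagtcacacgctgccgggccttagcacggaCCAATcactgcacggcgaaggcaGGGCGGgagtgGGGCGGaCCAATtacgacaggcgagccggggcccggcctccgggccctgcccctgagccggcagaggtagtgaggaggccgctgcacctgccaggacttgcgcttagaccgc
Hsd17b7: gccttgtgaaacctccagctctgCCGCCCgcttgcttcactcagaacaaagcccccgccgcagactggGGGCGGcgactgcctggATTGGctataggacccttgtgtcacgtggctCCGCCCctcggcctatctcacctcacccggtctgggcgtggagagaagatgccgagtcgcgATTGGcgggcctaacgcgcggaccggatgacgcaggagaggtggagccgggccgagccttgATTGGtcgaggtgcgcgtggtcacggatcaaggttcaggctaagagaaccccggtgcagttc
Idi1: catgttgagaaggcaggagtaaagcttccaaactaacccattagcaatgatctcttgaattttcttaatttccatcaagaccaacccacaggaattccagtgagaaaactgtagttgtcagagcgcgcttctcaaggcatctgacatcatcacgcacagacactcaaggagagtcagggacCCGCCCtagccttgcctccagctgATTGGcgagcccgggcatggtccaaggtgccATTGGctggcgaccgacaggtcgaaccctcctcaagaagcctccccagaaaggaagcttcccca
Lss: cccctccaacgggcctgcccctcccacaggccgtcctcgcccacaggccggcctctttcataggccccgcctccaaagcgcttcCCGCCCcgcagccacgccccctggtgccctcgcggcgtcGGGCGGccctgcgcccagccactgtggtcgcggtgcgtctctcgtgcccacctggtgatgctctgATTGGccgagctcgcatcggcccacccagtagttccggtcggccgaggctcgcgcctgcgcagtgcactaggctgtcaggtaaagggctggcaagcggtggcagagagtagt
Pdss1: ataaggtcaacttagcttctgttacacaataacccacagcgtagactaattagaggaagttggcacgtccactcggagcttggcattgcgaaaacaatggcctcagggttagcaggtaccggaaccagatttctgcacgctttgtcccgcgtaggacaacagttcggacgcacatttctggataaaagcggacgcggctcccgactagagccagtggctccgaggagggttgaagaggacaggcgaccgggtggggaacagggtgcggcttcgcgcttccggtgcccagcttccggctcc

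Of the 28 genes, 23 had a promoter in the table, with 26 promoters in all since 2 genes had more than 1; Fdps, Fdft1, Sqle, Acat1 and Stard4 were not matched. CCAAT was found in 19 of the 26 promoters (73.1%), against 37.4% of the 32851 mouse promoters of the same length. GGGCGG was found in 20 of 26 (76.9%), against 35.7% of all promoters. CACNCCA was found in 4 of 26 (15.4%), those of Acat2, Hmgcs1, Msmo1 and Soat1, against 18.4% of all promoters. No matches overlapped each other. The promoters of Pdss1 and Coq2 held none of the 3 motifs. These matches describe the letters in these windows and say nothing on binding.

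Counts on genes ranged from 25641329 to 29131708 per control mouse and from 23810036 to 35864666 per AZ6983 mouse. Reads outside all genes were 8.02% to 12.7% of the reads of the table in controls and 11.2% to 14.9% in AZ6983 mice. Genes of smooth muscle, the main cell of the aortic wall, summed to 10224 to 17612 CPM (TMM-normalized counts in units of a common library size). Brown fat genes summed to 2627 to 4360 CPM in controls and 2309 to 5561 CPM in AZ6983 mice, so every library also held RNA of brown fat. Mouse A4 had 576.51 CPM of Rag1, a gene of developing lymphocytes, against 0.149 to 21.3 CPM in the other 11 mice. For A1 the column of the table carries 3 of the 4 digits in its label, and the other 11 columns match in full. Because the whole vessel was sequenced, fewer cells of a type and less RNA per cell cannot be told apart for any gene below.

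None of the 28 genes differed between AZ6983 and control mice at 10% FDR in edgeR's quasi-likelihood test adjusted over all 15857 genes. The adjusted p-values ran from 0.45 (Coq2) to 0.993 (Lss), and edgeR called 0 genes in the whole table as well. At an unadjusted p under 0.05, edgeR set apart 1 of the 28 genes (3.57%), Coq2, against 10.2% of all genes tested. In DESeq2, which called 92 of 17592 genes (0.523%), 0 of the 28 passed 10% FDR and 1 had an unadjusted p under 0.05. In 0 of the 28 genes were the groups free of overlap, against 0.41% of all genes tested. The median log2 fold change of the 28 genes was −0.04, beside 0.01 for all genes tested, with 9 genes positive and 19 negative. Fold changes were small and their errors moderate: the 95% intervals of all 28 genes lay within −0.66 and 0.80 on the log2 scale, and those of 18 genes lay within 0.5 of 0. A 2-fold difference in either direction was thus outside the interval of every gene, while for 10 genes a difference of 0.5 on this scale was not, in at least 1 direction.

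**Figure D1:**
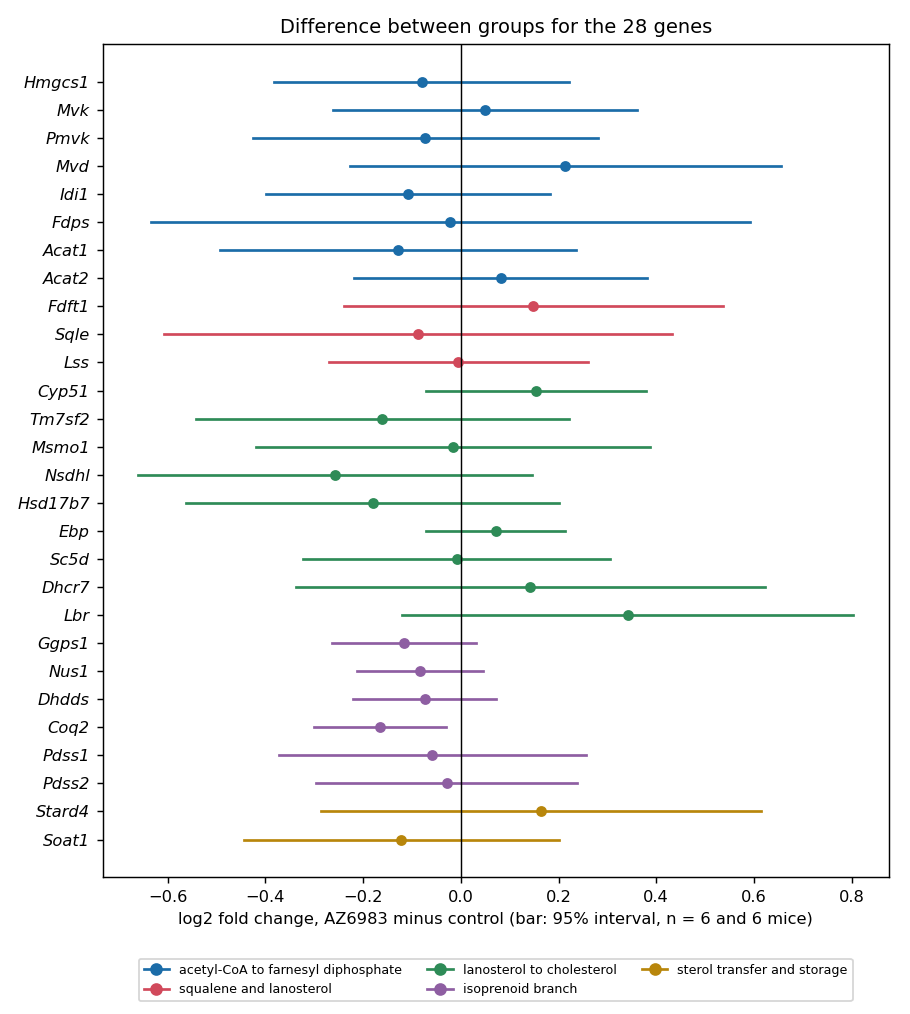
Difference between 6 AZ6983 and 6 control mice for each of the 28 genes, as log2 fold change in edgeR (point) with its 95% interval (bar), coloured by step of the pathway. The interval of Coq2 is the only one that does not reach 0, and the 6 genes of the isoprenoid branch all lie below 0.

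The 8 genes that lead from acetyl-CoA to farnesyl diphosphate had a median log2 fold change of −0.05, with 3 positive and 5 negative. Hmgcs1 makes HMG-CoA, the precursor of mevalonate, and had the second highest level of the 28 genes per length, at 46.4 CPM per kb of exon. It was at 166, 229.6 and 268 CPM (lowest, median and highest) in controls and at 164, 199.7 and 284 CPM in AZ6983 mice. The groups covered the same range, and both the highest mouse (A5) and the lowest (A3) were AZ6983 mice. The log2 fold change was −0.08 (standard error, SE, 0.139, 95% interval −0.38 to 0.22; adjusted p = 0.853 in edgeR). The gene lies at chr13:119690379-119708260 on GRCm38, where 12.2% of its 75-base transcript windows also occur in the antisense gene Gm48342.

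Mvd, which decarboxylates mevalonate diphosphate, was at 3.27, 5.88 and 8.17 CPM in controls and at 5.64, 7.14 and 7.98 CPM in AZ6983 mice. The AZ6983 mice lay inside the range of the controls, which was set by C4 at the bottom and C3 at the top. The log2 fold change was 0.21 (SE 0.204; edgeR, adjusted p = 0.705). Fdps makes farnesyl diphosphate and had the lowest level per length of the 28 genes, 0.361 CPM per kb, with 20 to 72 counts in controls and 26 to 55 counts in AZ6983 mice. It ran from 0.744 to 2.48 CPM in controls and from 0.935 to 2.16 CPM in AZ6983 mice, different by −0.02 on the log2 scale with a 95% interval from −0.63 to 0.59, the widest of the genes. Its value is uncertain. Fdps shares 1124 bases of exon on its strand with Gm43738, where reads could be set aside as ambiguous. It also shares 9.24% of its windows with that gene, Gm3571 and Gm7979, where reads could be set aside as ambiguous or as not unique.

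The remaining genes of these steps were as close between groups. Mevalonate kinase (Mvk), phosphomevalonate kinase (Pmvk) and isopentenyl diphosphate isomerase (Idi1) had log2 fold changes of 0.05, −0.07 and −0.11, and 29.1% of the windows of Idi1 also occur in Gm48574, on the opposite strand, or in other Gm genes. Of the thiolases that join acetyl-CoA units, cytosolic Acat2 had a log2 fold change of 0.08, with 40.7% of its windows shared with Acat3 and Tcp1. Mitochondrial Acat1, which acts in ketone and isoleucine metabolism, had the highest level per length, 98.3 CPM per kb. It was at 305, 392 and 431 CPM in controls and at 264, 312 and 571 CPM in AZ6983 mice. In 3 AZ6983 mice it was below every control, and A5 was above all other mice. The log2 fold change was −0.13 (SE 0.168; edgeR, adjusted p = 0.794) with all mice and −0.34 (SE 0.106; edgeR, adjusted p = 0.279) without A5.

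Among the 3 genes of squalene and lanosterol, squalene synthase (Fdft1) had a log2 fold change of 0.15 and lanosterol synthase (Lss) one of −0.005. Of the windows of Fdft1, 25.4% also occur in Ctsb, on the opposite strand, or in Gm6781. Squalene epoxidase (Sqle), which starts the oxygen-dependent part of the pathway, was at 12.9, 18.7 and 36.0 CPM in controls and at 14.3, 21.1 and 26.3 CPM in AZ6983 mice. Controls C3 and C6 were the highest of all mice and C4 the lowest, with the AZ6983 mice between them. The log2 fold change was −0.09 (SE 0.24; edgeR, adjusted p = 0.912), and it was 0.11 without C3.

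The 9 genes from lanosterol to cholesterol had a median log2 fold change of −0.01, with 4 positive and 5 negative. Dhcr7, the reductase of the last step, was at 5.51, 8.61 and 11.97 CPM in controls and at 7.09, 8.66 and 15.5 CPM in AZ6983 mice. Only A5 was above all controls, and the log2 fold change of 0.14 (SE 0.222; edgeR, adjusted p = 0.832) was −0.05 without it. The lamin B receptor (Lbr), a protein of the nuclear envelope that is also a sterol reductase, was at 39.8, 44.2 and 46.4 CPM in controls and at 36.5, 47.6 and 107 CPM in AZ6983 mice. The top value was that of A4, and the other 5 AZ6983 mice ran from 36.5 to 51.3 CPM. The log2 fold change of Lbr, the largest of the 28 genes, was 0.34 (SE 0.213; edgeR, adjusted p = 0.572) with all mice and 0.04 (SE 0.0799; edgeR, adjusted p = 0.885) without A4. A4 is also the mouse with high thymocyte genes, at a score of 5.43 against −2.43 to 1.06 in the other mice. A score is the mean log2 CPM of all genes of a marker list. Of the 8 thymocyte genes, 5 had enough counts to be tested. The part of thymocyte genes in the level of Lbr was not tested. The most negative of the 28 values was that of Nsdhl, a dehydrogenase that removes methyl carbons from sterols, at −0.26 (95% interval −0.66 to 0.15). Cyp51, the demethylase of lanosterol, had a log2 fold change of 0.15, Tm7sf2 of −0.16, Hsd17b7 of −0.18, Ebp of 0.07, Msmo1 of −0.02 and Sc5d of −0.01.

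**Figure D2:**
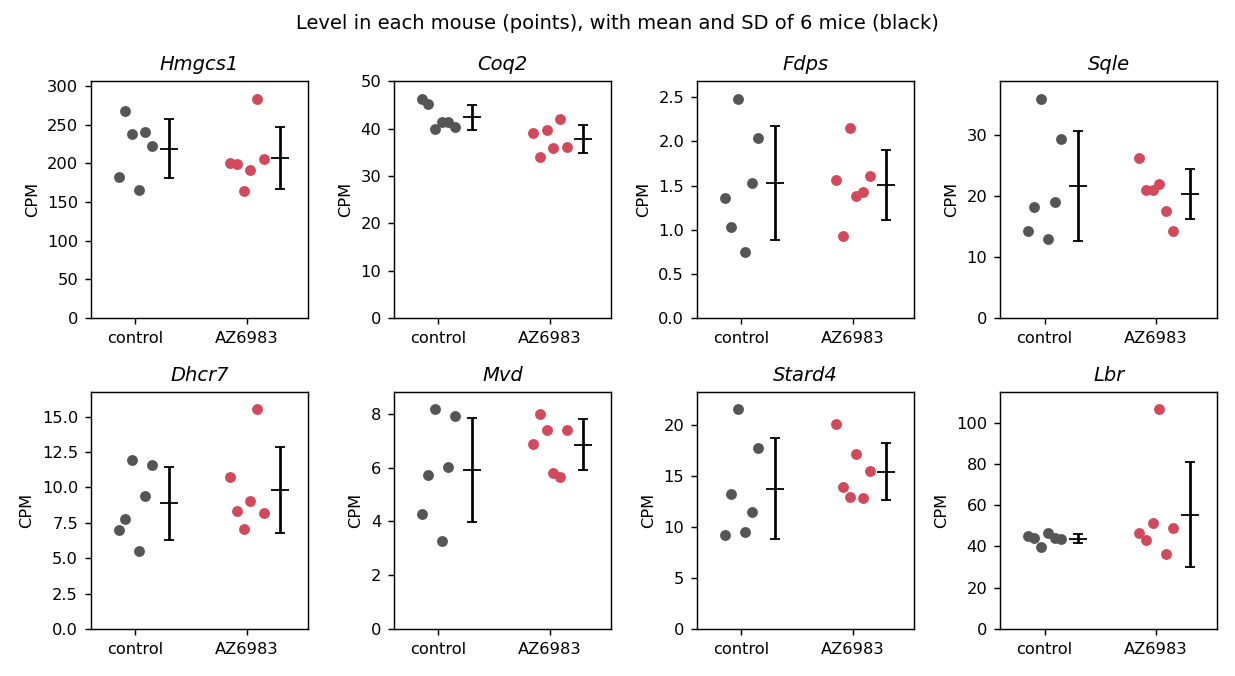
CPM of 8 genes in each of 6 control (grey) and 6 AZ6983 (red) mice, with mean and SD in black, on axes that start at 0. In 5 of 6 AZ6983 mice Coq2 is below every control, Lbr stands high in A4 alone at 107 CPM, and the other genes overlap broadly.

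With all mice, the 6 genes of the isoprenoid branch were all negative, with a median log2 fold change of −0.08 and 95% intervals within −0.37 and 0.26. Of all 15857 genes tested, 8314 were positive. Coq2, which attaches the side chain to the ring of coenzyme Q, was at 40.0, 41.5 and 46.3 CPM in controls and at 34.1, 37.7 and 42.0 CPM in AZ6983 mice. In 5 of the 6 AZ6983 mice it was below the lowest control, and the exception was A5. Its log2 fold change was −0.17 (SE 0.0624, 95% interval −0.30 to −0.03, unadjusted p = 0.0201 and adjusted p = 0.45 in edgeR), and an exact permutation test over mice, two-sided, gave p = 0.0216. At an unadjusted p under 0.05, 2.81% of all genes were lower in AZ6983 mice and 7.38% higher. Without A4 the unadjusted p of Coq2 was 0.0508 in edgeR, and with the fraction of reads outside genes as covariate it was 0.262. Geranylgeranyl diphosphate synthase (Ggps1), from which lipid anchors of proteins are made, had a log2 fold change of −0.12 (95% interval −0.26 to 0.03). The subunits of the enzyme that builds dolichol chains, Nus1 and Dhdds, had values of −0.08 and −0.07 and were among the steadiest genes, with a highest mouse 1.19 and 1.35 times the lowest. The subunits that build the side chain of coenzyme Q, Pdss1 and Pdss2, had values of −0.06 and −0.03. Without A1 these 2 values were 0.003 and 0.01.

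In the transfer and storage of sterols, Stard4, a carrier of cholesterol between membranes, was at 9.17, 12.3 and 21.5 CPM in controls and at 12.9, 14.7 and 20.1 CPM in AZ6983 mice. Its highest mouse was C3 and its lowest C1, and the log2 fold change was 0.16 (SE 0.208; edgeR, adjusted p = 0.785). Soat1 was at 40.5, 49.9 and 60.8 CPM in controls and at 29.9, 45.7 and 60.9 CPM in AZ6983 mice, different by −0.12 on the log2 scale, with A5 as the lowest mouse.

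A5 decided part of this picture. Its library also differed in make-up. The 10 genes with most counts held 30.2% of its counts on genes, against 16.0% to 22.1% in the other mice. Its smooth muscle score, 9.60, was the lowest of all mice. The part of these differences in the values of A5 was not tested. When A5 was left out, the genes with an unadjusted p under 0.05 in edgeR were 4, all lower in AZ6983 mice. They were Coq2 (log2 fold change −0.22), Acat1 (−0.34), Nsdhl (−0.44) and Pmvk (−0.26). In that fit 6.95% of all genes were lower at this threshold and 5.85% higher, and 27 of 16011 genes (0.169%) passed 10% FDR. The adjusted p-values of the 4 genes in edgeR were 0.237, 0.279, 0.303 and 0.363, so none of them passed. Brown fat genes also stood lower in the 5 other AZ6983 mice, at a score of 7.87 to 8.40, against 8.62 to 8.83 in 5 controls and 8.00 in C6, and their part in these 4 genes was not tested. Without A4 there were 0 such genes, where 2.45% of all genes were lower and 7.04% higher. Without A2 there were 2 (Coq2 and Nus1), both lower, against 3.25% of all genes lower and 5.45% higher. With the fraction of reads outside genes as covariate there was 1, Fdft1, higher by 0.54 on the log2 scale, against 1.87% of all genes higher and 1.07% lower.

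Other genes of the pathway were read from 3 lists, which were chosen with earlier results of these data known. Of 22 genes that control sterol synthesis and efflux, 21 were tested, 0 passed 10% FDR in edgeR, and 6 had an unadjusted p under 0.05, all higher in AZ6983 mice, where 7.38% of all genes were. Srebf1, a relative of Srebf2 that mainly drives fatty acid synthesis, was at 112 to 218 CPM in controls and 249 to 342 CPM in AZ6983 mice. Its groups did not overlap, with a log2 fold change of 1.02 (SE 0.155; edgeR, adjusted p = 0.157). Srebf2 was at 28.4 to 49.8 CPM in controls and 38.2 to 57.7 CPM in AZ6983 mice, which is 0.45 on the log2 scale (SE 0.132; edgeR, adjusted p = 0.447), with 2 AZ6983 mice above all controls. The cholesterol exporters Abca1 and Abcg1 had log2 fold changes of 0.52 and 0.45, Mylip, which degrades lipoprotein receptors, one of 0.31 and Tmem97, a sterol-binding membrane protein, one of 0.27. In edgeR 0 of all 15857 genes tested passed 10% FDR. The paper, using DESeq2 on these mice, lists Srebf1 and Abca1 as higher in AZ6983 mice at 10% FDR. Its list does not hold Srebf2, Abcg1, Mylip or Tmem97. Insig1, a usual readout of sterol-responsive transcription, was at 181 to 306 CPM in controls and 181 to 375 CPM in AZ6983 mice, different by 0.03 on the log2 scale (SE 0.181; edgeR, adjusted p = 0.966). Of 10 genes of protein prenylation, all tested, and of 15 further genes of coenzyme Q and dolichol, 13 of them tested, 0 passed either threshold, with median log2 fold changes of −0.04 and −0.02.

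Levels varied from mouse to mouse within both groups. Over the 12 mice the highest level was 1.19 (Nus1) to 3.34 (Fdps) times the lowest. C3 was above the median of a gene in 23 of the 28 genes and was the highest mouse for 7, and C4 was above it in 10 and was the lowest mouse for 10. Both are controls. The highest and lowest mouse were both controls for Mvd, Idi1, Fdps, Sqle, Tm7sf2, Msmo1, Hsd17b7, Sc5d and Stard4. They were both AZ6983 mice for Hmgcs1, Pmvk, Fdft1, Nsdhl, Acat1, Acat2, Lbr, Nus1, Pdss1, Pdss2 and Soat1. In the other genes the ends lay in different groups. A5 was the highest mouse for 9 genes and the lowest for 4.

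**Figure D3:**
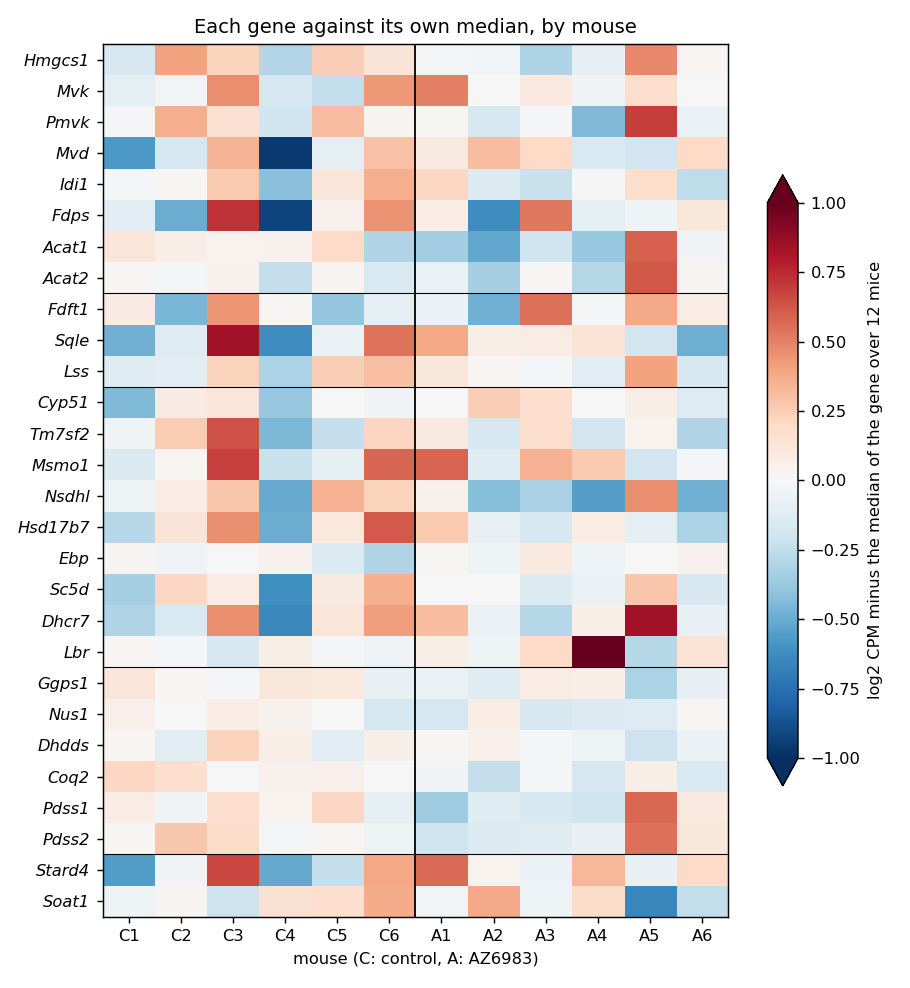
log2 CPM of each gene minus its median over the 12 mice, with mice in columns (C control, A AZ6983), genes in rows by step of the pathway and colour clipped at 1 in either direction. C3 is above the median in 23 of 28 genes and C4 in 10, A5 is the highest mouse for 9, and Lbr in A4 lies 1.26 above its median.

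Pairs of the 28 genes had a median Pearson's r of 0.16 over the 12 mice, across 378 pairs. At a Benjamini-Hochberg adjusted permutation p under 0.05 there were 33 pairs, 31 positive and 2 negative. No median or share for pairs of all genes tested is given beside these values. They therefore do not show whether these genes varied together more than other genes of these libraries. Pairs within a step of the pathway had a median r of 0.29 (83 pairs, 9 of them past that threshold) and pairs between steps one of 0.09 (295 pairs, 24 past it). By Pearson's r the closest pair was Sqle and Hsd17b7, a reductase of sterol intermediates, with r = 0.91 (permutation p = 0.00011, adjusted p = 0.00983) and Spearman's rho = 0.85 (permutation p = 0.00112, adjusted p = 0.0529). Without C3 and C4, the mice farthest from the median of Sqle, r was 0.86, and it was 0.94 in controls and 0.89 in AZ6983 mice. Lss and Dhcr7 had r = 0.90 (permutation p = 0.00013, adjusted p = 0.00983) and rho = 0.88 (permutation p = 0.00048, adjusted p = 0.0475), with r = 0.80 without C4 and A5. Sqle and Msmo1, the monooxygenase of methylsterols, had r = 0.88 (permutation p = 0.0001, adjusted p = 0.00983) and rho = 0.87 (permutation p = 0.00062, adjusted p = 0.0475), with r = 0.82 without C3 and C4. Idi1 and Hsd17b7 had r = 0.88 (permutation p = 0.00031, adjusted p = 0.0195) and rho = 0.87 (permutation p = 0.00079, adjusted p = 0.0475), with r = 0.76 without C4 and C6. By Spearman's rho the closest pair was Pmvk and Nsdhl, with rho = 0.94 (permutation p = 2e-05, adjusted p = 0.00756) and r = 0.84 (permutation p = 0.00011, adjusted p = 0.00983), and r = 0.77 without A4 and A5. In each of these 5 pairs r was at least 0.72 in either group alone.

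**Figure D4:**
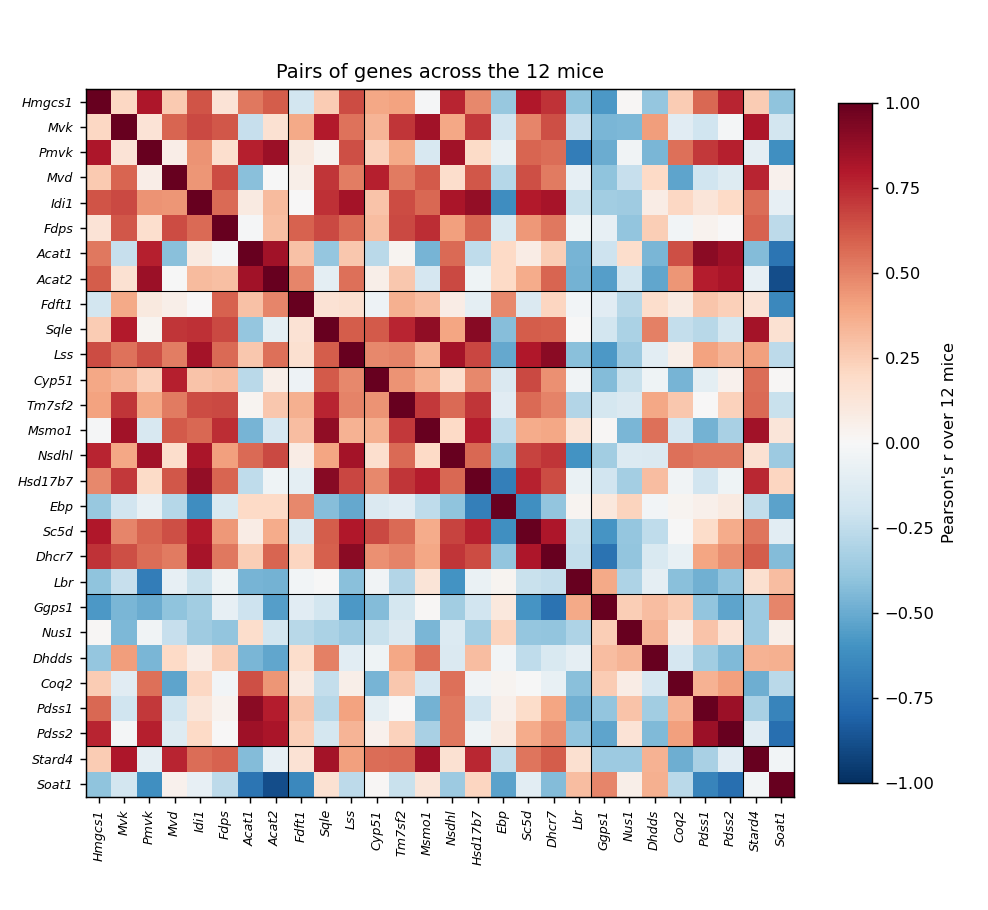
Pearson's r over the 12 mice for each pair of the 28 genes, in pathway order with lines between steps and the diagonal at 1 by construction. Sqle, Msmo1, Hsd17b7 and Stard4 form red cells with one another, and so do Acat1, Acat2, Pdss1 and Pdss2, while Soat1 with Acat2 is the bluest cell at −0.89.

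A second set of pairs held the thiolases and the coenzyme Q genes Pdss1 and Pdss2. Of the thiolases, Acat1 passed the threshold with both. Acat2 did not, with an adjusted permutation p of 0.0639 with Pdss1 and 0.0525 with Pdss2. Acat1 and Pdss1 had r = 0.90 (permutation p = 9e-05, adjusted p = 0.00983) and rho = 0.83 (permutation p = 0.00161, adjusted p = 0.0608), with r = 0.87 without A2 and A5, 0.73 in controls and 0.93 in AZ6983 mice. Other pairs of this set were weaker without A5. Pdss1 and Pdss2 had r = 0.86 over all mice, 0.67 without A5 and 0.56 without A1 and A5, with 0.07 in controls and 0.98 in AZ6983 mice. Acat1 and Acat2 had r = 0.84 over all mice, 0.68 without A5 and 0.53 without A2 and A5. Acat2 and Soat1 had r = −0.89 (permutation p = 0.00037, adjusted p = 0.02) and rho = −0.80 (permutation p = 0.00291, adjusted p = 0.0709), with r = −0.66 without A2 and A5. By Pearson's r, Fdps, Fdft1, Cyp51, Ebp, Ggps1, Nus1, Dhdds and Coq2 had no pair past the threshold. For Fdps the low counts limit what could be seen. By Spearman's rho, Coq2 did vary with Acat1, with rho = 0.87 (permutation p = 0.00062, adjusted p = 0.0475). Its r with Acat1 was 0.65 (permutation p = 0.0221, adjusted p = 0.13).

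Hmgcs1 was compared with 37 genes and scores. At an adjusted permutation p under 0.05, 5 of the other members followed it: Pmvk (r = 0.81), Sc5d (0.80), Nsdhl (0.76), Pdss2 (0.76) and Dhcr7 (0.72). For Pmvk the permutation p was 0.00118 (adjusted 0.0191), and rho was 0.82 (permutation p = 0.00218, adjusted p = 0.0403). For Sc5d, the desaturase late in the pathway, the permutation p was 0.00155 (adjusted 0.0191), and rho was 0.82 (permutation p = 0.00177, adjusted p = 0.0403). For the other 3, rho was 0.69 to 0.78 with adjusted p = 0.0566 to 0.0901. Without C2 and A5, r was 0.59 for Pmvk, 0.75 for Sc5d, 0.72 for Nsdhl, 0.43 for Pdss2 and 0.83 for Dhcr7. The count of 5 fell to 0 without A5, to 2 without C4 and to 3 without C5, in fewer mice. An r over 0.6 with Hmgcs1 was found for 8 of the 27 other members (29.6%), against 4.72% of all genes tested, and the median r was 0.26 against 0.01. Among the genes outside the list that were nearest to Hmgcs1 were Nat8l, Mmd, Ccdc122 and Nkiras1, at r of 0.90 to 0.88. The smooth muscle score passed the same threshold in the opposite direction, with r = −0.80 (permutation p = 0.00123, adjusted p = 0.0191) and rho = −0.64 (permutation p = 0.0305, adjusted p = 0.123), and r = −0.56 without C2 and A5; its part in the level of Hmgcs1 was not tested. Insig1 had r = 0.76 with Hmgcs1 (permutation p = 0.00424, adjusted p = 0.0307; rho = 0.73, permutation p = 0.00831, adjusted p = 0.0769; r = 0.53 without C2 and A5). The levels of Srebf2 and Srebf1 had r of 0.07 and −0.04 with Hmgcs1 (permutation p = 0.837 and 0.912), and rho of 0.11 and −0.11 (permutation p = 0.731 and 0.734).

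Some of these genes varied with marker scores of other tissue in the library. Over 392 relations of the 28 genes with 4 regulatory genes, 9 marker scores and the share of reads on no gene, 4 had an adjusted permutation p under 0.05. For these 4 relations the share of all genes tested is not given, so the count has no background. Acat1 with the brown fat score had r = 0.93 (permutation p = 2e-05, adjusted p = 0.00784) and rho = 0.88 (permutation p = 0.00028, adjusted p = 0.11), with r = 0.94 without A2 and A5, 0.88 in controls and 0.97 in AZ6983 mice. Pdss1 with the same score had r = 0.81 (permutation p = 0.00045, adjusted p = 0.0441) and rho = 0.74 (permutation p = 0.00729, adjusted p = 0.318), with r = 0.77 without A1 and A5. The brown fat score was 8.00 to 8.83 in controls and 7.87 to 9.07 in AZ6983 mice (exact permutation test, p = 0.156), and A5 had the highest value. The part of brown fat in the levels of Acat1 and Pdss1 was not tested beyond these correlations. Pdss2 with the smooth muscle score had r = −0.91 (permutation p = 0.0003, adjusted p = 0.0392) and rho = −0.77 (permutation p = 0.00473, adjusted p = 0.318), with r = −0.67 without C2 and A5. Pmvk with Insig1 had r = 0.87 (permutation p = 0.00022, adjusted p = 0.0392) and rho = 0.76 (permutation p = 0.00541, adjusted p = 0.318), with r = 0.73 without A4 and A5.

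**Figure D5:**
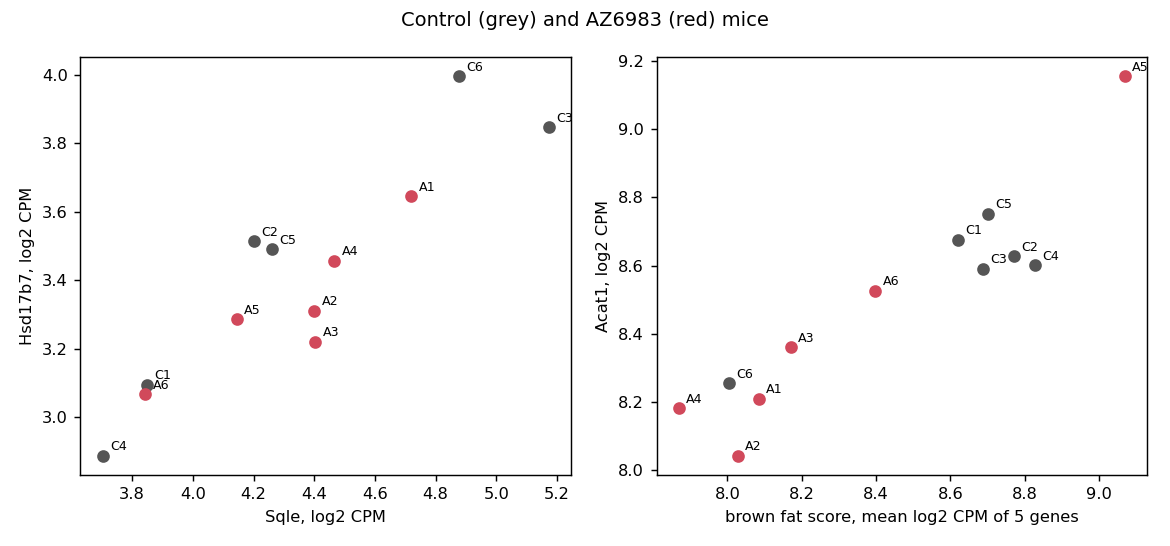
Left, log2 CPM of Hsd17b7 against Sqle; right, log2 CPM of Acat1 against the brown fat score (mean log2 CPM of 5 genes); each point is 1 of 12 mice (grey control, red AZ6983). Points rise together in both panels (r = 0.91 and 0.93), with C4 lowest and C3 and C6 highest on the left and A5 highest on the right.

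Schwann cells, the myelin-forming cells of nerves in the vessel wall, make much cholesterol for myelin, and their score was the one with the highest median r over the 28 genes, 0.50, beside 0.04 over all genes tested. For 13 genes (46.4%) the unadjusted permutation p was under 0.05, all with positive r, against 7.91% of all genes and 6.5% with positive r. Many of the 28 genes varied together over the same mice, so the 13 are not independent of each other. For 0 of the 13 was the adjusted p under 0.05, the lowest being 0.096. Stard4 had r = 0.79 with this score (permutation p = 0.00237; rho = 0.71, permutation p = 0.0121; r = 0.70 without C3 and A1), with 0.95 in controls and 0.24 in AZ6983 mice. The score itself was 3.47 to 4.94 in controls and 3.68 to 4.52 in AZ6983 mice (exact permutation test, p = 0.641), and its part in the levels of these genes was not tested beyond these correlations. With Srebf2 and Srebf1, the 28 genes had a median r of 0.09 and 0.02, and none passed the adjusted threshold.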

How the data were processed

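RNA from 6 control and 6 AZ6983 mice was sequenced by the authors as stranded, ribosomal RNA-depleted libraries, with reads of 75 bases from both ends. The authors deposited raw counts per gene symbol. Submitters' processing notes name CASAVA 1.8.2, STAR 2.5.2b, HTSeq 0.6.1p1 and the mm10 build; the annotation and the strand and counting settings are not given in the sources used here. The 3 rows that name no gene were left out of totals and tests: reads on no gene (8.02% to 14.9%), with no unique alignment (18.1% to 23.2%) and ambiguous (0.606% to 0.698%). Reads set aside in this way lower the counts of genes with near-identical copies. Groups came from the labels; 11 libraries matched a mouse number in full and 1 in part. Depth was 23810036 to 35864666 counts on genes per mouse, and precision falls with the count of a gene.

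Counts were analysed with edgeR 4.0.16 in R 4.3.3 (TMM, filterByExpr, quasi-likelihood test, AZ6983 against control, Benjamini-Hochberg over 15857 genes, 10% FDR). Standard errors were the size of the log2 fold change over the square root of F. The 95% intervals used the total degrees of freedom of the fit, residual plus prior. CPM are TMM-scaled counts, and log2 CPM had a prior count of 2. Exact permutation tests, two-sided, ran over 924 assignments of mice (smallest p = 0.00216), and correlations over log2 CPM of 12 mice used 100000 permutations (smallest p = 1e-05). Families of relations were 37 for Hmgcs1, and 378 pairs and 392 relations with genes and scores, the last 2 added after seeing the data. Positions and shared windows of 75 bases came from GENCODE M21 on GRCm38. Alternatives were DESeq2 1.42.0, limma-voom (limma 3.58.1), other scalings and filters, a prior count of 0.5, 5% FDR, a covariate and each mouse left out. Steps were tested on simulated data. The members and gene lists were chosen with earlier results of these data known. Genes given by mouse were Hmgcs1, Coq2 as the member with the smallest p, and the 6 with the largest spread over mice; Acat1, Soat1 and Nsdhl were added after their values were seen.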

Additional observations from a re-analysis of the deposited data

Results flagged for a closer look

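In each group of 6 mice, the highest and lowest values of the 28 genes and of 9 marker scores were examined for a mouse far from the other 5 (Dixon's test at 95%). This set apart 8 of 74 groups, where chance gives about 1 in 20, or 3.7. Among the members, A4 had a log2 CPM of 6.74 for Lbr, against 5.19 to 5.68 in the other AZ6983 mice. A5 had 6.00 for Sc5d, against 5.56 to 5.72. C6 had 8.25 for Acat1, against 8.59 to 8.75 in the other controls, and 6.12 for Nus1, against 6.29 to 6.36. Among the scores, C6 was low in brown fat at 8.00, against 8.62 to 8.83, and in endothelium at 6.79, against 6.99 to 7.08. C2 was high in white fat at 7.26, against 6.37 to 6.67. A4 was high in thymocyte genes at 5.43, against −1.52 to 1.06 in the other AZ6983 mice.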

How the results depend on the processing

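No paired analysis was possible because the mouse numbers in the labels are not shared between the groups. The count of members past 10% FDR was 0 in every alternative run, with DESeq2 (lowest adjusted p of a member 0.308) and limma-voom (0.472) among them. Of 256 values recomputed, 12 changed sign and 10 counts moved by over 1.5 times; the other 234 kept their sign and side of the threshold, but not always their size. The number of members at an unadjusted p under 0.05 and lower in AZ6983 mice was 0 to 4 with each mouse left out and 0 with the fraction of reads outside genes as covariate, where 1 was higher. Leaving out A4 and A5 together, chosen after seeing the data, gave 3 lower members (Nsdhl, Acat1 and Coq2). The number of members correlated with Hmgcs1 was 0 to 6 with each mouse left out and 0 without A4 and A5. Among fold changes that were never past the threshold, Fdps turned to 0.015 without A4 and A5, 0.027 in limma-voom and 0.26 with the covariate, and ran from −0.16 to 0.16 with each mouse left out. Sqle ran from −0.20 to 0.11 and Dhcr7 from −0.052 to 0.23 with each mouse left out. Dhcr7 was −0.062 without A4 and A5, and Mvd was −0.051 with the covariate. The cause of these shifts was not tested. The median log2 fold change of the members was −0.09 to −0.01 with each mouse left out. Depth limits Fdps most, with as few as 20 counts in a mouse.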
